A study of Danio rerio with 12 samples.

Results

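The response to 8 hours of hypoxia in wild-type zebrafish larvae was read from 6 libraries, 3 from larvae kept in normoxia and 3 from larvae kept in hypoxia, out of 12 libraries in the series. Every larva was 3 days past fertilization and carried no stated allele, and RNA came from whole larvae, so each value is an average over all tissues. The other 6 libraries came from gcn2 knockout larvae of the same age and exposures. They entered the estimate of the spread, and they served to test whether the response differed between genotypes. Each of the 4 groups held 3 libraries, which the study's design text calls biological replicates, while the oxygen level, the strain and the nature of the gcn2 allele are not given in the sources used here. Values are FPKM, reads scaled by gene length and by a factor per library, which differed from the library's recovered reads. Of 35004 genes in the deposited table, 21480 reached at least 1 FPKM in at least 3 of the 12 libraries and were tested. Fold changes are differences of group means of log2(FPKM + 1) in hypoxia minus normoxia, a scale that shrinks the folds of weakly expressed genes, and the error after ± is the standard error of the limma fit. Adjusted p values are from limma with Benjamini-Hochberg adjustment over the 21480 genes, and a gene passed the test below 0.05. Errors on group levels are SDs with n = 3.

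Animals sense oxygen through prolyl hydroxylases (the egln genes), which spend oxygen to mark the alpha subunits of hypoxia-inducible factor (HIF) for capture by the von Hippel-Lindau protein and destruction. In low oxygen the alpha subunits escape, pair with Arnt and switch on genes for glycolysis, vessel growth, red cell supply and mitochondrial restraint, among them the hydroxylases themselves. Many of these genes exist as duplicate copies in zebrafish, which can be regulated apart. Larvae at this age live partly on yolk, take up much of their oxygen through the skin and still grow by cell division.

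Hypoxia changed 7723 genes of the 21480 tested, or 36.0%, with 3598 higher (16.8%) and 4125 lower (19.2%). Every list count below is to be read beside these shares of all genes. The split depended on the scaling, with 3037 higher and 4496 lower under TPM scaling and 3836 and 4044 under quantile normalization. The alternative filter at 5 FPKM tested 11982 genes, so list counts given under it leave out members below that level. Most changes were small. Of the genes tested, 366 (1.70%) passed the test with an absolute log2 fold change of at least 1, and 26 moved by 2 or more, 23 of them upward. Of the 2380 genes with an absolute change of 0.5 to 1, 1370 passed the test lower and 839 higher. The share past the test grew with level, from 17.2% of the 4651 genes with a wild-type mean under 2 FPKM to 61.4% of the 800 genes between 50 and 250 FPKM. The hypoxia libraries all lay above the normoxia libraries for 4819 genes (22.4%) and all below for 5114 (23.8%). Over all genes the median change was 0.01, or -0.016 with TPM scaling. The deposited FPKM had the same median ratio factor, 1.007, in each of the 12 libraries. A small median was therefore largely set by the scaling and is not a result.

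**Figure D1:**
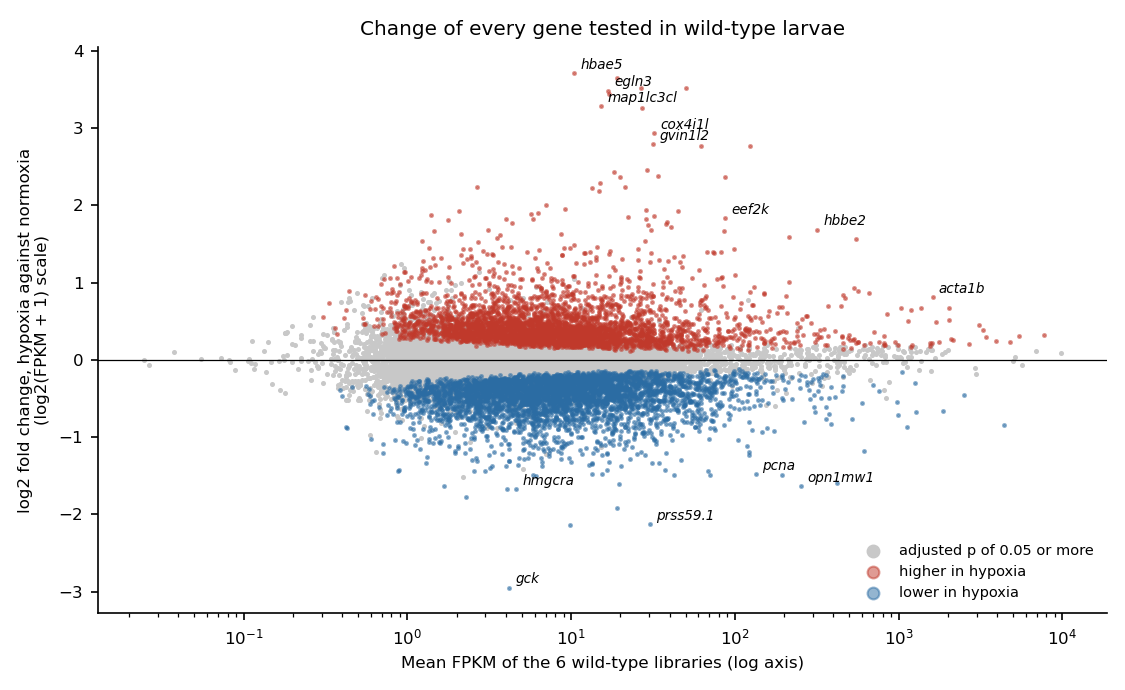
Log2 fold change of hypoxia against normoxia in wild-type larvae (vertical axis, log2(FPKM + 1) scale) against the mean FPKM of the 6 wild-type libraries (log axis) for the 21480 genes tested. Red points are the 3598 genes higher and blue points the 4125 genes lower in hypoxia at an adjusted p under 0.05, and the largest single changes are upward, apart from gck at the bottom.

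Libraries held 15945365 to 16841145 recovered reads in wild type and 27371 to 27622 genes above 0. Reads on the mitochondrial genome took 3.48% to 3.67% of the total in normoxia and 3.00% to 3.08% in hypoxia. The targeted gene eif2ak4 was at 3.82, 3.91 and 3.63 FPKM in wild-type normoxia and 4.23, 4.18 and 4.25 FPKM in wild-type hypoxia, against 1.66, 1.85 and 1.696 FPKM and 1.55, 1.95 and 1.52 FPKM in the knockout. Every wild-type library lay above every knockout library for it. All 15 tissue marker lists had members above the filter, from skeletal muscle to liver and photoreceptors.

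Of 8 HIF subunit genes tested, 4 rose and none fell. The alpha-like subunit gene hif1al gave 46.99, 44.3 and 47.7 FPKM in the normoxia libraries and 79.1, 73.2 and 76.9 FPKM in the hypoxia libraries, a log2 fold change of 0.71 ± 0.07 (adjusted p = 5.90e-06). Its hypoxia libraries all lay above its normoxia libraries. The partner genes arnt2 (0.45 ± 0.10) and arnt (0.32 ± 0.07) rose, and so did epas1a (0.31 ± 0.08), which encodes a HIF-2 alpha. The main HIF-1 alpha genes did not pass the test, at 0.02 ± 0.04 for hif1ab (adjusted p = 0.822) and -0.04 ± 0.11 for hif1aa (adjusted p = 0.828), with group means of 29.2 ± 0.149 and 29.5 ± 0.969 FPKM for hif1ab. The other copies, epas1b (-0.14 ± 0.08) and hif1al2 (0.15 ± 0.13), did not pass either.

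The enzymes that switch HIF off rose further than the HIF genes. Of 16 genes for oxygen sensing and HIF turnover, 8 rose and 3 fell, with a median log2 change of 0.43 against 0.01 for all genes. All 4 egln genes rose. The gene egln3 (ENSDARG00000032553, chromosome 17, 9912036 to 9936915, GRCz11) was at 1.96, 1.93 and 1.84 FPKM under normoxia and at 32.05, 32.5 and 30.3 FPKM under hypoxia, a change of 3.49 ± 0.06 (adjusted p = 7.22e-12). For egln2 the values were 2.02, 2.24 and 2.402 FPKM and 12.7, 11.3 and 11.7 FPKM (2.005 ± 0.09, adjusted p = 1.21e-08). The normoxia and hypoxia libraries were far apart for both genes. Of the other copies, egln1b went from 6.08, 7.19 and 6.91 FPKM to 21.2, 19.97 and 17.1 FPKM (1.398 ± 0.11). The gene egln1a gave 0.954, 1.16 and 1.27 FPKM and 4.301, 4.57 and 5.05 FPKM (1.41 ± 0.10). Per length, egln1b was the highest of the 4 in normoxia and egln3 in hypoxia.

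Factor inhibiting HIF, hif1an, an asparagine hydroxylase that blocks the HIF transactivation domain, rose from 13.2 ± 1.796 to 46.2 ± 2.47 FPKM (1.74 ± 0.09, adjusted p = 3.01e-08). The von Hippel-Lindau gene vhl rose from 4.56 ± 0.226 to 10.6 ± 0.567 FPKM (1.06 ± 0.11, adjusted p = 1.22e-05). The gene cited2, whose product competes with HIF for its coactivators, rose by 1.08 ± 0.08. The falls were in other parts of the ubiquitin ligase that carries the von Hippel-Lindau protein. The ring subunit gene rbx1 fell from 92.8 to 58.3 FPKM (-0.67 ± 0.09) and the elongin C gene elocb from 15.7 to 11.03 FPKM (-0.47 ± 0.07).

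**Figure D2:**
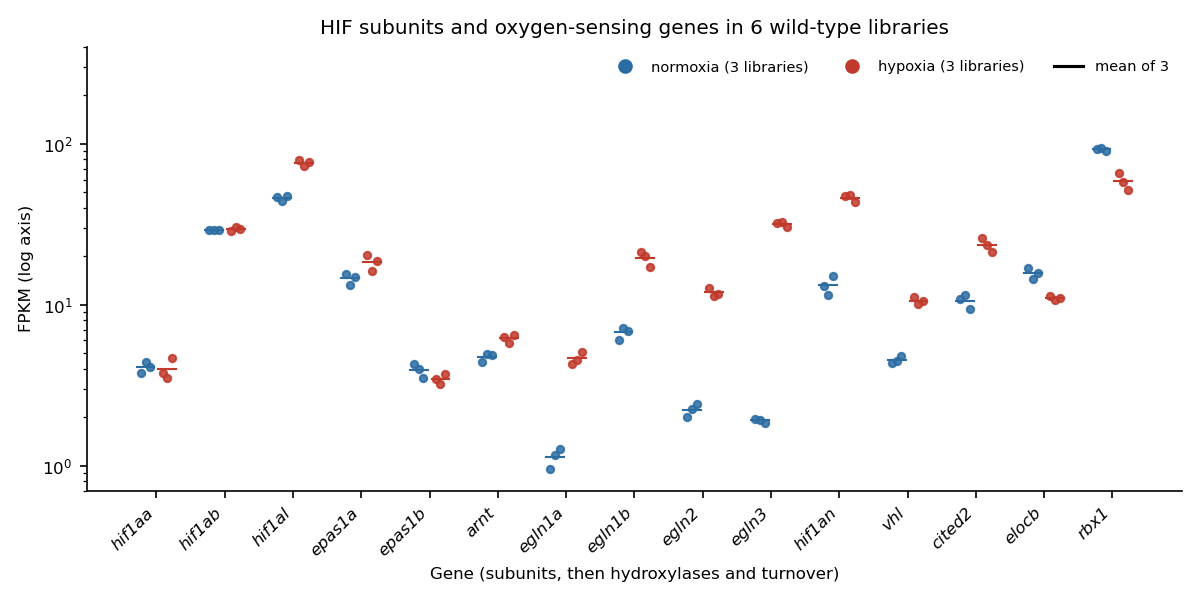
FPKM (log axis) of HIF subunit genes and of oxygen-sensing and turnover genes in the 6 wild-type libraries, blue for normoxia and red for hypoxia, with a bar at the mean of 3. The egln genes, hif1an, vhl and cited2 separate widely, hif1ab and hif1aa overlap, and elocb and rbx1 lie lower in hypoxia.

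Of 44 known direct HIF targets, 34 rose and 2 fell (median 0.61). The list rests on earlier work on hypoxia and was assembled with results of these data known. Its largest rises were egln3 and ankrd37, a gene for a small ankyrin protein, and ankrd37 went from 3.35, 4.21 and 2.92 FPKM to 53.6, 49.7 and 47.03 FPKM (3.52 ± 0.11, adjusted p = 9.74e-10). The mTORC1 inhibitor gene ddit4 gave 8.402, 8.34 and 8.03 FPKM in the normoxia libraries and 52.1, 49.7 and 47.7 FPKM in the hypoxia libraries (2.46 ± 0.11, adjusted p = 1.24e-08). The disulfide oxidase gene ero1a rose from 1.32 to 6.096 FPKM (1.61 ± 0.11), and the phosphocalcic hormone gene stc2a from 6.69 to 11.2 FPKM (0.67 ± 0.08). Both targets that fell are ones usually given as induced, namely the transferrin receptor gene tfr1a (-0.51 ± 0.10) and the respiratory supercomplex gene higd1a (-0.37 ± 0.07).

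Duplicate copies of a target parted in several cases. The collagen prolyl hydroxylase gene p4ha1b rose from 5.77 ± 0.894 to 34.1 ± 4.53 FPKM (2.37 ± 0.12), whereas p4ha1a was at 12.6, 12.4 and 13.04 FPKM and 13.5, 12.3 and 12.3 FPKM (0.00 ± 0.06, adjusted p = 0.998). The mitophagy receptor gene bnip3lb rose from 16.7 to 45.2 FPKM (1.38 ± 0.07), and bnip3la stood at -0.05 ± 0.08 (adjusted p = 0.678). For the stress-response gene ndrg1 the b copy rose by 1.17 ± 0.09 and the a copy by 0.23 ± 0.06. The demethylase gene kdm4b, an HIF target in mammals, was at 0.23 ± 0.13 and missed the threshold (adjusted p = 0.171), which it reached when hypoxia replicate 1 of wild type was left out.

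**Figure D3:**
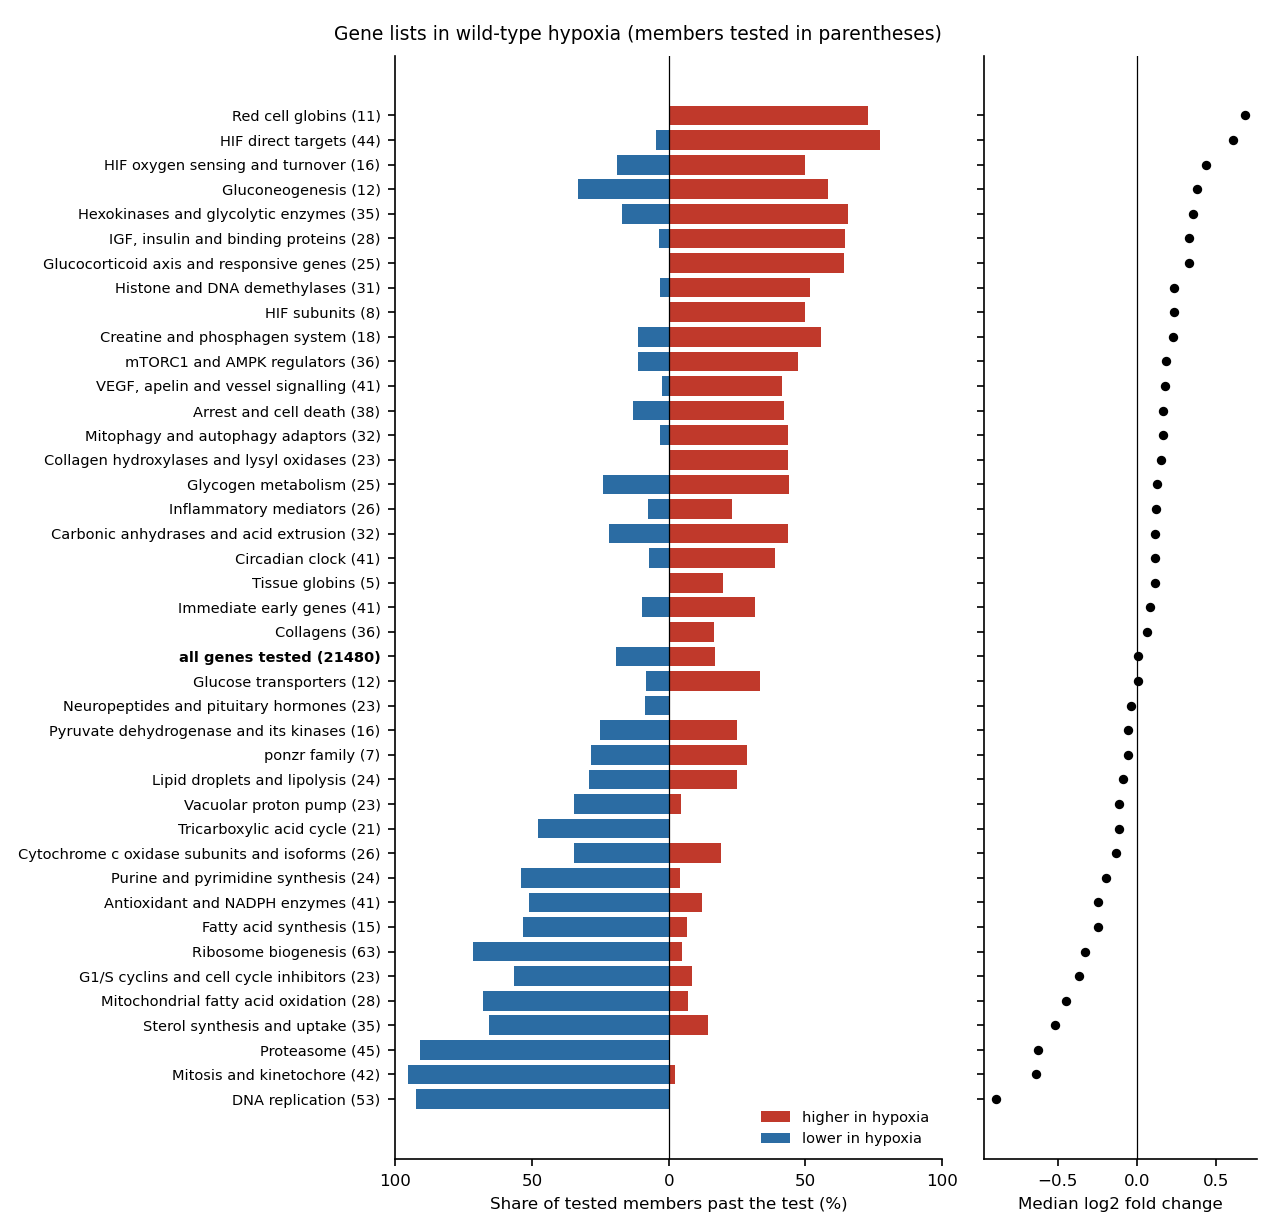
Left, share of the tested members of each list that passed the test higher (red, to the right) or lower (blue, to the left) in wild-type hypoxia, with all genes tested in bold. Right, the median log2 fold change of the same members, from -0.89 for DNA replication to 0.68 for red cell globins.

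Glycolytic genes rose at most steps below hexokinase, while glucokinase and other hexokinase genes fell. Of 35 hexokinase and glycolytic genes, 23 rose and 6 fell (median 0.36). Glucokinase, gck (ENSDARG00000068006, chromosome 8, 40476811 to 40490593), the hexokinase of liver and pancreas, was at 7.53, 7.498 and 9.62 FPKM under normoxia and at 0.214, 0.166 and 0.188 FPKM under hypoxia (-2.95 ± 0.12, adjusted p = 7.64e-09). That was the largest fall of the 21480 genes tested. The related hexokinase genes hkdc1 (-1.14 ± 0.09) and hk2 (-0.42 ± 0.09) fell too, while hk1, the broadly expressed form, rose from 30.9 to 43.9 FPKM (0.49 ± 0.05). The liver pyruvate kinase gene pklr fell by 0.48 on the log2 scale.

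Within the glycolytic chain, the copies that rose most were pfklb (1.07 ± 0.08), pgam1a (1.07 ± 0.07), eno1a (1.003 ± 0.04) and pfkmb (0.99 ± 0.08). Their partner copies pgam1b (-0.24 ± 0.05) and eno1b (-0.36 ± 0.08) fell. The most abundant of these genes, gapdhs, rose from 468 ± 4.698 to 852 ± 44.5 FPKM, and pgk1 from 106 ± 3.94 to 194 ± 5.72 FPKM. Of the 6 pfkfb genes tested, which set the level of an activator of phosphofructokinase, 3 rose and pfkfb2a fell (-0.26 ± 0.09), a call lost when any of the 6 wild-type libraries or knockout normoxia replicate 1 was left out, with the 6 wild-type libraries alone and with array weights. The gene pfkfb3 measured 4.18, 3.504 and 4.59 FPKM and 21.9, 21.1 and 25.1 FPKM (2.22 ± 0.09, adjusted p = 6.53e-09), while pfkfb4b rose by 1.298 ± 0.14 and pfkfb4a by 0.85 ± 0.07. Lactate dehydrogenase A, ldha, rose from 164 ± 3.67 to 249.8 ± 13.9 FPKM (0.60 ± 0.05).

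Of 12 glucose transporter genes, 4 rose and 1 fell. The neuron-type transporter copies slc2a3a, from 17.7 ± 0.925 to 31.5 ± 0.845 FPKM (0.80 ± 0.07), and slc2a3b (0.80 ± 0.12) led, followed by slc2a1b (0.55 ± 0.08). The copy slc2a1a was at -0.17 ± 0.12 (adjusted p = 0.312). Glucose transporter rises numbered 2 with the filter at 5 FPKM. Falls in the glucose transporter list numbered 2 with wild-type hypoxia replicate 1 or else gcn2 knockout normoxia replicate 2 or 3 left out. Glucose transporter falls numbered 2 with the filter at 5 FPKM or with TPM scaling or with the 6 wild-type libraries alone or with voom. The lactate exporters slc16a3b (0.80 ± 0.07), slc16a1a (0.76 ± 0.09) and slc16a3a (0.49 ± 0.10) rose together with their chaperone bsg (0.38 ± 0.05).

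Gluconeogenesis was split, with 7 of 12 genes higher and 4 lower (median 0.38). The widest rises were in pck1 and g6pc1a.1. Phosphoenolpyruvate carboxykinase, pck1, gave 28.8, 25.4 and 28.2 FPKM in the normoxia libraries and 162, 137 and 139.7 FPKM in the hypoxia libraries (2.37 ± 0.07, adjusted p = 6.36e-10). The glucose-6-phosphatase gene g6pc1a.1, the exit step, measured 4.198, 4.67 and 4.41 FPKM and 29.2, 22.3 and 25.2 FPKM (2.28 ± 0.10, adjusted p = 1.21e-08). Its tandem copy g6pc1a.2 rose by 1.07 ± 0.10. The g6pc1a genes act against the glucose-trapping step of gck. In the middle of the path fbp1b rose (0.68 ± 0.08) and fbp2 fell (-0.57 ± 0.12).

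Of 25 glycogen genes 11 rose and 6 fell. The muscle-type glycogen synthase gys1 rose by 0.78 ± 0.05, the liver-type gys2 fell by 0.49 on the log2 scale, and one of the muscle phosphorylase copies, pygmb, rose (0.71 ± 0.06). The glycogen-targeting phosphatase subunits ppp1r3aa (1.06 ± 0.10) and ppp1r3da (0.92 ± 0.12) showed the largest rises of the list.

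At the gate between glycolysis and mitochondria the kinases rose and the complex fell slightly. Of 16 genes of the pyruvate dehydrogenase list, 4 rose, all of them kinases that shut the complex, and 4 fell, or 7 with TPM scaling. The kinase gene pdk2b was at 6.49, 4.03 and 3.73 FPKM under normoxia and at 21.7, 21.3 and 31.8 FPKM under hypoxia (2.18 ± 0.23, adjusted p = 1.51e-05). The copy pdk2a measured 17.2, 17.9 and 16.8 FPKM and 41.96, 40.2 and 47.7 FPKM (1.27 ± 0.08, adjusted p = 2.70e-07). The genes pdk3a (0.81 ± 0.08) and pdk4 (0.69 ± 0.08) followed. The kinase best known as an HIF target in mammals, pdk1, was at 12.99 ± 1.25 and 14.2 ± 1.31 FPKM and did not pass (0.12 ± 0.08, adjusted p = 0.284). Another copy, pdk3b, lay below the filter, at 0.491, 0.3402 and 0.418 FPKM and 0.417, 0.434 and 0.729 FPKM. The phosphatase gene pdp2, which reopens the complex, fell (-0.42 ± 0.10), as did the subunit genes pdha1a (-0.21 ± 0.04) and dlat (-0.22 ± 0.06).

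In the tricarboxylic acid cycle 10 of 21 genes fell and none rose, a direction that was shared but small (median -0.11). The count was 6 without wild-type hypoxia replicate 2. The largest falls were in idh3a, from 71.4 ± 1.59 to 48.6 ± 1.27 FPKM (-0.55 ± 0.04), suclg2 (-0.45 ± 0.08) and the succinate dehydrogenase anchor genes sdhdb (-0.43 ± 0.05) and sdhc (-0.36 ± 0.05).

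Mitochondrial fatty acid oxidation fell more broadly, with 19 of 28 genes lower and 2 higher (median -0.45). Each step of the pathway had a member that fell. The carnitine step was represented by cpt2 (-0.74 ± 0.07) and cpt1aa (-0.36 ± 0.05), and the first dehydrogenation by acadm (-0.44 ± 0.06) and acads (-0.46 ± 0.07). The trifunctional protein gene hadhaa measured 27.9, 28.1 and 28.05 FPKM and 15.7, 15.9 and 17.4 FPKM (-0.75 ± 0.05). The isomerase gene eci1 measured 37.3, 37.6 and 38.9 FPKM and 20.3, 21.6 and 24.1 FPKM (-0.76 ± 0.07). Both were named under a rule that asked for hypoxia and normoxia libraries that do not overlap. Both members that rose were genes of the nuclear receptor PPAR alpha, which activates this pathway, with pparab at 0.53 ± 0.13. Rises in the fatty acid oxidation list numbered 1 with wild-type normoxia replicate 1 or 2 or else wild-type hypoxia replicate 1 or 3 or else gcn2 knockout normoxia replicate 1, 2 or 3 or else gcn2 knockout hypoxia replicate 1 or 3 left out. Fatty acid oxidation rises numbered 0 with the filter at 5 FPKM and 1 without the filter or with TPM scaling or with the 6 wild-type libraries alone or with array weights or with voom.

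Cytochrome c oxidase, the enzyme that consumes oxygen, changed unevenly among its subunit genes. Of 26 genes of the complex and its isoforms, 9 fell and 5 rose (median -0.13), and 14 fell with TPM scaling. The gene cox4i1l, a variant of subunit 4, gave 7.44, 6.26 and 6.37 FPKM in the normoxia libraries and 66.2, 53.2 and 54.5 FPKM in the hypoxia libraries (2.93 ± 0.11, adjusted p = 2.65e-09). The standard subunit gene cox4i1 measured 463, 431 and 434 FPKM and 420.2, 381 and 387 FPKM (-0.16 ± 0.06, adjusted p = 0.05703), which did not pass here and passed under 9 alternatives at -0.16 to -0.20. As a share of the FPKM of both, cox4i1l stood at 1.58%, 1.43% and 1.45% in normoxia and 13.6%, 12.2% and 12.3% in hypoxia. The isoform cox4i2, an HIF target in mammals, rose little, from 27.9 ± 1.56 to 34.3 ± 4.28 FPKM (0.28 ± 0.07).

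Another pair of subunit genes in the complex moved apart. The subunit gene cox6b1 rose from 108 ± 5.67 to 196 ± 15.7 FPKM (0.85 ± 0.07) while cox6b2 fell from 141 ± 6.297 to 119 ± 8.48 FPKM (-0.25 ± 0.07). The associated subunit gene ndufa4b rose from 70.003 to 124 FPKM (0.81 ± 0.05). The genes cox7c (-0.80 ± 0.15), cox7a2a (-0.53 ± 0.07) and cox7b (-0.45 ± 0.08) fell. The protease gene lonp1, which in mammals degrades the standard subunit 4 in hypoxia, fell from 8.34 to 5.94 FPKM (-0.43 ± 0.08).

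Of 32 mitophagy and autophagy genes 14 rose and 1 fell, or 2 with TPM scaling (median 0.16). The LC3-like modifier gene map1lc3cl was at 1.51, 2.04 and 2.61 FPKM under normoxia and at 32.6, 28.5 and 24.8 FPKM under hypoxia (3.29 ± 0.15, adjusted p = 1.59e-08). The common LC3 gene map1lc3b rose by 0.28 ± 0.06, from 75.3 to 91.7 FPKM. Receptor genes moved apart, with bnip3lb and bnip3 (0.47 ± 0.09) up and fundc2 down (-0.43 ± 0.06). The initiation genes atg13 (0.47 ± 0.05) and wipi2 (0.44 ± 0.05) rose.

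Regulators of growth rose more often than they fell. Of 36 regulators of mTORC1 and AMPK, which set growth by nutrient and energy supply, 17 rose and 4 fell (median 0.19). Besides ddit4, the mTORC1 inhibitor gene akt1s1 (PRAS40) measured 40.9, 40.8 and 41.7 FPKM and 120.3, 109 and 97.6 FPKM (1.38 ± 0.08, adjusted p = 7.16e-08). The translation repressor gene eif4ebp3l rose from 26.7 ± 1.88 to 69.4 ± 3.28 FPKM (1.35 ± 0.08) and its relative eif4ebp3 by 0.73 ± 0.08. The folliculin partner gene fnip2 (0.95 ± 0.11), folliculin itself, flcn (0.55 ± 0.07), castor2 (0.94 ± 0.06) and the sestrin gene sesn2 (0.48 ± 0.11) rose. The activator gene rhebl1 (-0.46 ± 0.06) and the AMPK catalytic gene prkaa1 (-0.27 ± 0.06) fell.

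Outside that list, the elongation factor 2 kinase gene eef2k, which halts elongation, gave 38.4, 35.8 and 39.1 FPKM in the normoxia libraries and 145, 133 and 134 FPKM in the hypoxia libraries (1.84 ± 0.06, adjusted p = 6.39e-10). The eIF4E kinase gene mknk2b rose from 18.1 ± 1.01 to 71.4 ± 3.12 FPKM (1.92 ± 0.09). Genes that supply ribosomes fell. Of 63 ribosome biogenesis genes 45 fell and 3 rose (median -0.33), with fibrillarin, fbl, from 79.4 ± 3.09 to 41.6 ± 1.53 FPKM (-0.92 ± 0.05), nhp2 (-0.79 ± 0.10) and npm1a (-0.75 ± 0.05) among the falls. The helicase gene ddx21 rose within the list (0.64 ± 0.04).

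The proteasome, which degrades tagged proteins, fell nearly as a whole. Of 45 subunit and activator genes 41 fell and none rose (median -0.63). The core subunit gene psma3 went from 79.1 to 44.2 FPKM (-0.83 ± 0.08), the ATPase gene psmc6 from 65.5 to 37.1 FPKM (-0.81 ± 0.07) and the lid gene psmd8 from 53.6 ± 1.21 to 26.8 ± 2.29 FPKM (-0.97 ± 0.06). The gene psmd10, whose product assists assembly, fell by 0.87 on the log2 scale. The summed level of the list was 2055 to 2150 FPKM over the normoxia libraries and 1239 to 1423 FPKM over those in hypoxia.

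Insulin and growth factor signalling genes rose in most cases, 18 of 28 against 1 that fell (median 0.33). The binding protein gene igfbp1a, which holds IGF away from its receptor, was at 7.15, 7.803 and 5.62 FPKM under normoxia and at 40.1, 33.9 and 34.1 FPKM under hypoxia (2.24 ± 0.12, adjusted p = 5.22e-08). Its duplicate igfbp1b rose by 1.27 ± 0.11 and igfbp6b by 1.25 ± 0.11. Receptor-side genes rose as well, with the adaptor irs2a from 6.27 ± 0.3702 to 17.99 ± 1.48 FPKM (1.38 ± 0.08), the insulin receptor insrb (0.58 ± 0.05) and the transcription factor foxo1a (0.54 ± 0.10). Of the ligands, igf2b rose by 0.70 ± 0.07. Falls in the growth factor list numbered 0 with wild-type normoxia replicate 1 or 2 or else wild-type hypoxia replicate 2 left out. Growth factor list falls numbered 0 with the filter at 5 FPKM or with the 6 wild-type libraries alone.

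Cell division genes fell almost without exception. Of 53 DNA replication genes 49 fell and none rose (median -0.89), and of 42 mitosis and kinetochore genes 40 fell and 1 rose (median -0.64). The sliding clamp gene pcna gave 195, 187 and 214 FPKM in the normoxia libraries and 72.6, 68.1 and 71.2 FPKM in the hypoxia libraries (-1.48 ± 0.06, adjusted p = 9.40e-09). The helicase gene mcm2 went from 19.6 ± 0.905 to 8.37 ± 0.448 FPKM (-1.13 ± 0.07), thymidylate synthase tyms from 20.3 ± 0.735 to 6.696 ± 1.18 FPKM (-1.48 ± 0.12), ube2c, a ubiquitin carrier of mitotic exit, from 37.2 ± 2.34 to 15.98 ± 3.64 FPKM (-1.19 ± 0.12) and the kinetochore gene spc24 from 8.11 to 2.94 FPKM (-1.21 ± 0.12). Normoxia and hypoxia libraries did not overlap for pcna or mcm2. The genes tyms, ube2c and spc24 were named under a rule that asked for this. In whole larvae, fewer cells of a type and less RNA per cell cannot be told apart, here and for every tissue marker below.

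The regulators above replication shared the fall. Of 23 G1/S genes 13 fell and 2 rose, or 6 fell with the filter at 5 FPKM, which tests fewer members. The kinase gene cdk2 fell from 12.97 ± 1.001 to 5.56 ± 0.592 FPKM (-1.09 ± 0.09), and rb1, whose product restrains E2F, from 7.85 ± 0.185 to 3.93 ± 0.103 FPKM (-0.85 ± 0.06). The activating E2F genes e2f1 (-0.63 ± 0.11), e2f2 (-0.82 ± 0.09) and e2f3 (-0.64 ± 0.06) and the repressing e2f7 (-0.68 ± 0.12) and e2f8 (-0.62 ± 0.09) fell alike. The rises were both copies of the inhibitor p27, cdkn1ba (0.32 ± 0.07) and cdkn1bb (0.36 ± 0.06). The p21 gene cdkn1a did not pass (-0.13 ± 0.11, adjusted p = 0.391).

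Nucleotide synthesis lost 13 of 24 genes and gained 1 (median -0.20). The pyrimidine gene umps fell from 13.4 ± 0.8895 to 5.88 ± 1.25 FPKM (-1.08 ± 0.12), followed by cad (-0.37 ± 0.07) and dhodh (-0.37 ± 0.09). The purine gene paics rose from 97.2 ± 8.42 to 161 ± 22.2 FPKM (0.72 ± 0.10). Rises in the nucleotide synthesis list numbered 2 with wild-type normoxia replicate 3 or else wild-type hypoxia replicate 2 or 3 left out. Nucleotide synthesis rises numbered 3 with the filter at 5 FPKM or with voom and 5 with quantile normalization.

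Of 38 arrest and cell death genes 16 rose and 5 fell (median 0.16). The ubiquitin ligase gene mdm2 (0.42 ± 0.09) and its relative mdm4 (0.43 ± 0.05) rose. The survival genes mcl1b, from 26.8 ± 1.68 to 66.1 ± 5.77 FPKM (1.27 ± 0.09), and mcl1a (0.78 ± 0.07) rose, and so did the death activators bbc3 (0.54 ± 0.08) and pmaip1 (0.42 ± 0.14). The call for pmaip1 was lost without wild-type normoxia replicate 2 or 3 or hypoxia replicate 1 or 3, without the filter, with array weights and with voom. The cyclin gene ccng2, which accompanies arrest, rose from 15.6 ± 1.16 to 28.6 ± 0.926 FPKM (0.83 ± 0.06).

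Sterol synthesis needs molecular oxygen at several steps, and its genes fell at many steps. Of 35 genes 23 fell and 5 rose (median -0.52). The rate-limiting reductase gene hmgcra was at 6.79, 8.11 and 7.75 FPKM under normoxia and at 1.195, 1.76 and 2.17 FPKM under hypoxia (-1.67 ± 0.12, adjusted p = 7.86e-07). The decarboxylase gene mvda measured 8.63, 9.46 and 10.5 FPKM and 2.14, 3.499 and 2.57 FPKM (-1.51 ± 0.12, adjusted p = 1.11e-06). Falls of similar size were seen for hmgcs1 (-1.47 ± 0.10), for lss, which closes the sterol rings (-1.44 ± 0.11), and for sqlea, which uses oxygen directly (-1.23 ± 0.12). The genes that rose work against synthesis or uptake or carry sterol out, with insig1, which holds the sterol regulator SREBP in place, from 9.08 ± 0.776 to 24.97 ± 2.17 FPKM (1.36 ± 0.09) and the exporter abcg1 at 0.76 ± 0.11. The regulator srebf2 fell (-0.42 ± 0.08) and srebf1 did not pass (-0.17 ± 0.10, adjusted p = 0.209).

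Fatty acid synthesis had 8 of 15 genes lower and 1 higher (median -0.24). The desaturase fads2, another oxygen-using enzyme, fell from 7.304 ± 0.637 to 2.22 ± 0.162 FPKM (-1.36 ± 0.09), and the elongase elovl2 from 2.51 ± 0.369 to 0.688 ± 0.0914 FPKM (-1.05 ± 0.11). The stearoyl desaturase scdb rose (0.26 ± 0.06). In the lipid droplet list 6 rose and 7 fell of 24. The lipase inhibitor gene angptl4 rose from 23.9 ± 1.4998 to 61.5 ± 1.09 FPKM (1.33 ± 0.07) and pnpla3 by 0.84 ± 0.09, while the triglyceride synthesis genes dgat1a (-0.79 ± 0.12) and dgat2 (-0.48 ± 0.12) fell. Rises in the lipid droplet list numbered 3 with wild-type normoxia replicate 1 or 3 or else wild-type hypoxia replicate 3 left out.

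Genes for oxygen-dependent demethylases rose more often than they fell. Of 31 histone, DNA and RNA demethylase genes 16 rose and 1 fell (median 0.24). The RNA demethylase gene alkbh5 measured 2.84, 4.31 and 3.47 FPKM and 10.21, 9.499 and 7.39 FPKM (1.15 ± 0.13). The histone demethylase gene kdm7aa measured 8.24, 8.105 and 9.69 FPKM and 18.9, 19.5 and 20.6 FPKM (1.097 ± 0.07, adjusted p = 2.70e-07). Next came jmjd6 (0.96 ± 0.09), kdm4c (0.88 ± 0.09), kdm5ba (0.84 ± 0.07) and the DNA demethylase tet3 (0.81 ± 0.10). Falls in the demethylase list numbered 0 with wild-type normoxia replicate 1, 2 or 3 or else wild-type hypoxia replicate 1 or 3 or else gcn2 knockout normoxia replicate 1, 2 or 3 or else gcn2 knockout hypoxia replicate 3 left out. Demethylase falls numbered 0 without the filter or with quantile normalization.

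Matrix genes divided between modifiers and substrate. Of 23 collagen hydroxylase and lysyl oxidase genes 10 rose and none fell, led by p4ha1b, p4ha2 from 11.4 ± 0.901 to 29.7 ± 4.19 FPKM (1.305 ± 0.10) and the lysyl hydroxylase plod1a (1.15 ± 0.09). The cross-linking genes loxa (0.57 ± 0.15) and loxl2b (0.54 ± 0.06) rose. Falls in the collagen hydroxylase list numbered 1 with gcn2 knockout hypoxia replicate 2 or 3 left out and 2 with wild-type hypoxia replicate 1 left out. Collagen hydroxylase falls numbered 1 with TPM scaling or with quantile normalization or with the 6 wild-type libraries alone or with voom. Of 36 collagen genes 6 rose (16.7%, beside 16.8% of all genes) and none fell, and the changes were small. The highest was col8a2 at 0.26 ± 0.07, and col16a1 (0.24 ± 0.07) lost its call without wild-type hypoxia replicate 2 (adjusted p = 0.051). Rises in the collagen list numbered 2 with wild-type normoxia replicate 3 left out and 3 with wild-type normoxia replicate 1 or else wild-type hypoxia replicate 2 left out. Collagen rises numbered 3 with TPM scaling or with the 6 wild-type libraries alone. Falls in the collagen list numbered 2 with wild-type hypoxia replicate 2 left out. Collagen falls numbered 1 with voom.

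Vessel signals rose in 17 of 41 genes and fell in 1 (median 0.18), and 10 rose with the filter at 5 FPKM. Among ligands, vegfab gave 6.24, 6.27 and 6.44 FPKM in the normoxia libraries and 13.03, 13.8 and 12.7 FPKM in the hypoxia libraries (0.95 ± 0.07, adjusted p = 1.09e-06) and so rose more than vegfaa (0.57 ± 0.11). The vasodilator genes adm2a, from 1.59 ± 0.228 to 4.42 ± 0.401 FPKM (1.06 ± 0.12), and adma (0.74 ± 0.11) rose. The vessel-remodelling gene angpt2b rose from 1.23 to 2.33 FPKM (0.59 ± 0.12). Among receptor genes, flt1 stood at 0.41 ± 0.08 and kdr at 0.28 ± 0.07. Falls in the vessel signalling list numbered 0 with wild-type normoxia replicate 3 left out and 2 with wild-type normoxia replicate 1 or else wild-type hypoxia replicate 1 left out. Vessel list falls numbered 2 with the filter at 5 FPKM or with TPM scaling or with voom.

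Genes for oxygen-carrying proteins of blood and muscle rose. Of 11 red cell globin genes 8 rose and none fell (median 0.68). The alpha globin hbae5 was at 0.461, 0.814 and 0.517 FPKM under normoxia and at 21.9, 23.1 and 15.5 FPKM under hypoxia (3.72 ± 0.17, adjusted p = 1.59e-08). The beta globin hbbe2 measured 147, 149 and 154 FPKM and 506, 495 and 456 FPKM (1.69 ± 0.05, adjusted p = 6.39e-10). The more abundant genes hbae3, from 793 ± 31.6 to 1283 ± 275 FPKM (0.67 ± 0.12), and hbbe1.1, from 672 ± 34.96 to 1031 ± 232 FPKM (0.59 ± 0.12), rose less. The globins are a multigene family of near copies, so the authors' counting could have split their reads. Myoglobin, mb, the oxygen store of muscle, rose from 22.5 ± 2.59 to 40.8 ± 8.103 FPKM (0.82 ± 0.13). The genes ngb (0.05 ± 0.10), cygb1 (0.11 ± 0.06) and cygb2 (-0.03 ± 0.09), tissue globins of nerve and other cells, did not pass.

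Apart from the globins, 4 of 14 red cell markers were higher (28.6%, beside 16.8% of all genes). Lower ones numbered 3 (21.4%, beside 19.2%). The band 3 anion exchanger slc4a1a measured 10.9, 10.99 and 11.7 FPKM and 50.6, 44.9 and 42.4 FPKM (1.94 ± 0.07, adjusted p = 3.51e-09), and the nucleotidase gene nt5c2l1 rose from 7.64 ± 0.195 to 20.9 ± 3.61 FPKM (1.33 ± 0.11). Erythropoietin, epoa, lay below the filter and had no test, at 0.218, 0.276 and 0.222 FPKM under normoxia and 0.818, 1.02 and 0.646 FPKM under hypoxia, where every library lay above those in normoxia. Haem oxygenase, hmox1a, which opens haem for recycling, rose by 0.47 ± 0.08. Of 32 carbonic anhydrase and acid export genes 14 rose, or 8 with the filter at 5 FPKM, and 7 fell, or 4 with that filter. The mitochondrial enzyme ca5a rose from 19.5 ± 0.406 to 49.4 ± 3.34 FPKM (1.298 ± 0.06), while the red cell enzyme cahz fell (-0.63 ± 0.08).

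Glucocorticoid-responsive genes rose, and so did some of the enzymes that handle the hormone. Of 25 genes of the axis and its targets 16 rose and none fell (median 0.33). The liver enzyme gene tat gave 1.18, 0.956 and 1.11 FPKM in the normoxia libraries and 4.18, 2.95 and 4.61 FPKM in the hypoxia libraries (1.22 ± 0.16, adjusted p = 6.66e-05). The transcription factor klf9 rose from 6.92 ± 0.746 to 15.1 ± 2.92 FPKM (1.01 ± 0.19), cebpd by 0.59 ± 0.09 and the kinase sgk1 by 0.41 ± 0.08. The steroid enzyme genes hsd20b2 (0.80 ± 0.10) and cyp17a1 (0.74 ± 0.08) rose. The receptor chaperone gene fkbp5 rose by 0.58 ± 0.19 (adjusted p = 0.0276), a call lost without the filter or when normoxia replicate 1 or 2 or hypoxia replicate 3 of wild type was left out.

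In the circadian clock 16 of 41 genes rose and 3 fell (median 0.12). The cryptochrome gene cry4 measured 18.1, 18.9 and 19.9 FPKM and 35.8, 35.9 and 35.8 FPKM (0.88 ± 0.06, adjusted p = 6.99e-07). The output factor hlfa rose (0.60 ± 0.09), with cry2 (0.51 ± 0.10), while the light-responsive per2 (-0.46 ± 0.08) and the repressor nr1d1 (-0.64 ± 0.14) fell. The gene per1a was below the filter. All libraries share an age, and the clock time of collection is not given in the sources used here.

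Immediate early genes gave 13 rises and 4 falls of 41 (median 0.09). The antiproliferative gene btg1 rose from 57.4 ± 1.25 to 112 ± 8.65 FPKM (0.95 ± 0.06), with the small Maf gene maff (0.65 ± 0.07) and the phosphatase gene dusp1 (0.54 ± 0.08). The classical member fosab did not pass (0.08 ± 0.16, adjusted p = 0.732). Falls in the immediate early list numbered 2 with wild-type normoxia replicate 1 or 2 or else wild-type hypoxia replicate 1 or else gcn2 knockout normoxia replicate 1, 2 or 3 or else gcn2 knockout hypoxia replicate 2 left out. Immediate early falls numbered 2 without the filter or with quantile normalization or with the 6 wild-type libraries alone or with array weights. Of 26 inflammatory mediator genes 6 rose (23.1%, beside 16.8% of all genes) and 2 fell (7.69%, beside 19.2%). The chemokine gene cxcl18b rose from 1.09 to 2.55 FPKM (0.76 ± 0.14), and the cytokine brake socs1a stood at -0.52 ± 0.15, a fall that did not pass when replicate 2 of either wild-type group was left out. Falls in the inflammatory list numbered 0 with wild-type normoxia replicate 2 or else wild-type hypoxia replicate 2 left out and 1 with wild-type normoxia replicate 1 or else wild-type hypoxia replicate 3 left out. Inflammatory list falls numbered 0 with the filter at 5 FPKM and 1 without the filter or with the 6 wild-type libraries alone. The leptin gene lepb, which had no test, gave 0.296, 0.0 and 0.101 FPKM in the normoxia libraries and 0.0, 0.105 and 0.0 FPKM in the hypoxia libraries. The other leptin gene, lepa, also below the filter and untested, gave 0.232, 0.241 and 0.118 FPKM and 0.254, 0.738 and 0.744 FPKM. Its hypoxia libraries all lay above its normoxia libraries.

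Antioxidant and NADPH enzyme genes fell in 21 of 41 cases and rose in 5 (median -0.24). Superoxide dismutase sod1 fell from 44.3 ± 1.23 to 27.9 ± 4.74 FPKM (-0.66 ± 0.10), catalase, cat, by 0.48 on the log2 scale and the glutathione synthesis gene gclc by 0.54. The thioredoxin inhibitor genes txnipa, from 106 ± 3.21 to 321 ± 26.4 FPKM (1.59 ± 0.07, adjusted p = 1.01e-08), and txnipb (0.77 ± 0.06) rose, as did nfe2l2a, which encodes Nrf2 (0.78 ± 0.07). Of 18 creatine and phosphagen genes 10 rose and 2 fell, with ckba up (0.83 ± 0.10) and the mitochondrial kinase ckmt2a down (-0.82 ± 0.10). Of 23 vacuolar proton pump genes 8 fell, among them atp6v0ca (-0.28 ± 0.05) and atp6v0a2a (-0.27 ± 0.06), and 1 rose. Of 23 neuropeptide and pituitary hormone genes 2 fell and none rose, and the somatolactin gene smtlb went from 2.26 ± 0.435 to 0.365 ± 0.151 FPKM (-1.25 ± 0.13). Falls in the neuropeptide list numbered 1 with wild-type normoxia replicate 1 or else wild-type hypoxia replicate 3 left out. Neuropeptide falls numbered 0 with the filter at 5 FPKM, which leaves out members below that level, and 1 with voom. Rises in the neuropeptide list numbered 1 with wild-type hypoxia replicate 3 left out.

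The ponzr genes, a fish family related to mammalian plac8, held some of the widest changes in the table and also members that fell. Of 7 tested, 2 rose and 2 fell. The gene ponzr4 was at 1.84, 2.02 and 2.03 FPKM under normoxia and at 37.97, 36.8 and 33.2 FPKM under hypoxia (3.64 ± 0.07, adjusted p = 1.11e-11). Its relative ponzr3 measured 5.11, 9.697 and 7.33 FPKM and 101, 85.1 and 92.5 FPKM (3.52 ± 0.16, adjusted p = 1.67e-08). The related plac8.1 fell from 28.96 ± 3.17 to 13.6 ± 3.34 FPKM (-1.06 ± 0.17) and ponzr1 by 0.49 on the log2 scale.

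The 10 largest rises outside every list, among named genes, came from diverse pathways. The gene gvin1l2, a very large GTPase of the interferon-inducible type, gave 6.04, 7.72 and 8.0001 FPKM in the normoxia libraries and 58.4, 49.97 and 60.1 FPKM in the hypoxia libraries (2.796 ± 0.10, adjusted p = 1.95e-09). The aminotransferase gene agxtb, which removes glyoxylate, measured 15.9, 16.04 and 13.3 FPKM and 104, 95.7 and 129 FPKM (2.77 ± 0.10, adjusted p = 2.65e-09). The vitamin D-degrading enzyme gene cyp24a1 rose from 5.03 ± 0.624 to 31.6 ± 5.55 FPKM (2.43 ± 0.13) and sqor, which oxidizes hydrogen sulfide in mitochondria, from 10.27 ± 1.23 to 57.7 ± 3.17 FPKM (2.38 ± 0.08). The others were the microRNA 21-1 gene (1.95 ± 0.23), mknk2b, ucp3 (1.88 ± 0.17), znf395a (1.86 ± 0.08), eef2k and the arrestin-like arrdc3b (1.79 ± 0.09).

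Among the 10 largest falls outside the lists, 2 belonged to the kinetochore, cenph (-1.31 ± 0.16) and nsl1 (-1.27 ± 0.14). The gene ebpl, a relative of the sterol isomerase ebp, went from 4.803 ± 0.308 to 1.19 ± 0.498 FPKM (-1.43 ± 0.18), and guk1b, a guanylate kinase, from 19.7 ± 1.09 to 7.16 ± 0.935 FPKM (-1.35 ± 0.09). The zymogen granule gene sycn.2 (-1.31 ± 0.24) fell with the pancreas markers described below. The remainder were scpp9 (-1.401 ± 0.25), cyp2aa3 (-1.28 ± 0.14), urad of urate breakdown (-1.28 ± 0.10), ugt5b3 (-1.27 ± 0.15) and syt5a (-1.27 ± 0.16).

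Tissue markers moved in opposite directions by organ. Exocrine pancreas markers fell most, 15 of 22 with none higher, or 1 without the filter (median -0.91). Their summed level was 454 to 710.3 FPKM over the normoxia libraries and 176 to 325 FPKM over those in hypoxia. The elastase gene ela3l was at 17.3, 22.7 and 10.5 FPKM under normoxia and at 3.26, 2.22 and 3.32 FPKM under hypoxia (-2.13 ± 0.25, adjusted p = 3.17e-05). The trypsin-type gene prss59.1 measured 57.1, 53.2 and 37.8 FPKM and 11.7, 6.16 and 15.1 FPKM (-2.13 ± 0.25, adjusted p = 3.16e-05). The acinar carboxypeptidase gene cpa5 was also on the macrophage and neutrophil list and fell by 0.99 on the log2 scale. Few endocrine pancreas markers passed the test, 1 higher and 1 lower of 13, and the pax6b call (adjusted p = 0.0282) was lost when replicate 1 or 2 of either wild-type group was left out, with TPM scaling and with the 6 wild-type libraries alone. Endocrine rises numbered 0 with TPM scaling or with the 6 wild-type libraries alone and 2 with the filter at 5 FPKM or with voom. Rises in the endocrine pancreas list numbered 0 with wild-type normoxia replicate 1 or else wild-type hypoxia replicate 2 left out and 2 with wild-type normoxia replicate 3 or else wild-type hypoxia replicate 3 or else gcn2 knockout hypoxia replicate 1 left out. Falls in the endocrine pancreas list numbered 2 with wild-type hypoxia replicate 2 left out and 3 with wild-type hypoxia replicate 1 left out. Endocrine falls numbered 0 with the filter at 5 FPKM.

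Photoreceptor markers fell in 22 of 36 cases and rose in none (median -0.47), with a summed level of 3684 to 4119 FPKM over the normoxia libraries and 1556 to 2591 FPKM over those in hypoxia. The green cone opsin gene opn1mw1 gave 387, 386 and 362 FPKM in the normoxia libraries and 93.9, 101 and 188 FPKM in the hypoxia libraries (-1.63 ± 0.18). The cone transducin gene gngt2b measured 655, 655 and 587 FPKM and 177, 213 and 243 FPKM (-1.59 ± 0.09, adjusted p = 1.40e-07). Replicate 3 was the highest hypoxia library for both. Rises in the photoreceptor list numbered 1 with wild-type hypoxia replicate 3 left out. Photoreceptor rises numbered 1 with the filter at 5 FPKM or with voom. Lens markers, from the same organ, gave 2 rises and 5 falls of 47, with crybb1l3 (-0.46 ± 0.08) and gja8b (-0.42 ± 0.08) the largest falls. Lens rises numbered 4 with quantile normalization. Falls in the lens list numbered 3 with wild-type normoxia replicate 1 or else wild-type hypoxia replicate 2 left out. Lens falls numbered 3 without the filter or with the filter at 5 FPKM or with the 6 wild-type libraries alone.

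Intestine markers fell in 10 of 18 cases, among them fabp2, from 140.1 ± 10.9 to 68.8 ± 13.01 FPKM (-1.03 ± 0.11), and the mucus-cell gene agr2 (-0.95 ± 0.06). The citrate carrier gene slc13a2 rose against them, from 13.2 ± 2.37 to 37.9 ± 9.65 FPKM (1.44 ± 0.15). Liver markers divided, 11 higher and 5 lower of 31. The liver fatty acid binder fabp10a fell from 104 ± 7.88 to 36.3 ± 1.06 FPKM (-1.49 ± 0.07) and apoba by 1.03 on the log2 scale, while fibrinogen fgb rose (0.61 ± 0.09). Falls in the liver list numbered 8 with wild-type hypoxia replicate 1 left out. Liver marker falls numbered 8 with quantile normalization.

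Macrophage and neutrophil markers passed the test at shares near those of all genes, with 3 of 20 higher and 5 lower, beside 16.8% and 19.2% of all genes. The lysozyme gene lyz was lower (-1.15 ± 0.25) and the macrophage receptor gene csf1ra higher (0.78 ± 0.07). That receptor is also expressed in pigment cells of zebrafish. Macrophage and neutrophil rises numbered 1 with the filter at 5 FPKM. Macrophage list falls numbered 3 with the 6 wild-type libraries alone.

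More muscle and skin markers rose than fell. Of 47 skeletal muscle markers 25 rose and 3 fell (median 0.19), and the summed level was 49203 to 51171 FPKM over the normoxia libraries and 58600 to 60055 FPKM over those in hypoxia. The actin genes acta1a, from 327 ± 6.795 to 590.2 ± 55.1 FPKM (0.84 ± 0.07), and acta1b, from 1166 ± 39.5 to 2056 ± 193 FPKM (0.81 ± 0.07), led. Of 22 heart markers 9 rose and 1 fell. The natriuretic peptide genes nppa, from 6.72 ± 0.589 to 17.4 ± 2.82 FPKM (1.25 ± 0.12), and nppb, from 0.938 ± 0.182 to 3.99 ± 1.197 FPKM (1.34 ± 0.15), are released by a loaded heart. Epidermis markers gave 18 rises and 8 falls of 32. The basal keratin gene krt5 rose (0.50 ± 0.06), the annexin gene anxa1b fell from 49.4 ± 4.39 to 19.2 ± 4.27 FPKM (-1.34 ± 0.14), and the gene zgc:111983 rose from 37.002 to 83.95 FPKM (1.16 ± 0.10).

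Ionocytes are the salt-transporting cells of the skin. Of 29 markers 7 rose and 3 fell. The ammonia channel gene rhcga was at 1.97, 2.13 and 1.98 FPKM under normoxia and at 31.3, 28.1 and 36.4 FPKM under hypoxia (3.44 ± 0.15, adjusted p = 1.48e-08), while its relatives rhcgb (0.58 ± 0.11) and rhbg (0.37 ± 0.06) rose less. The calcium channel gene trpv6 fell from 8.896 ± 1.201 to 4.49 ± 1.099 FPKM (-0.86 ± 0.14). Of 28 endothelial markers 8 rose and none fell, with cldn5b at 0.40 ± 0.08. Falls in the endothelium list numbered 1 with wild-type hypoxia replicate 1 left out. Endothelial falls numbered 1 with TPM scaling.

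In the nervous system, 15 of 44 neuron and synapse markers rose and 2 fell. The sodium channel gene scn1lab rose from 4.298 ± 0.705 to 8.13 ± 1.11 FPKM (0.79 ± 0.10) and the glutamate receptor gene grin1b by 0.64 ± 0.08, while tubb5, a tubulin of young neurons, fell from 202 ± 5.57 to 110.0 ± 7.04 FPKM (-0.88 ± 0.07). Falls in the neuron list numbered 4 with wild-type hypoxia replicate 3 left out and 5 with wild-type hypoxia replicate 2 left out. Glia and progenitor markers gave 11 rises, or 7 without wild-type normoxia replicate 2, and 3 falls of 32. The radial glia gene fabp7a fell from 493 ± 17.8 to 277 ± 24.7 FPKM (-0.83 ± 0.06), slc1a2a fell by 0.60 on the log2 scale, and gfap rose (0.53 ± 0.07).

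**Figure D4:**
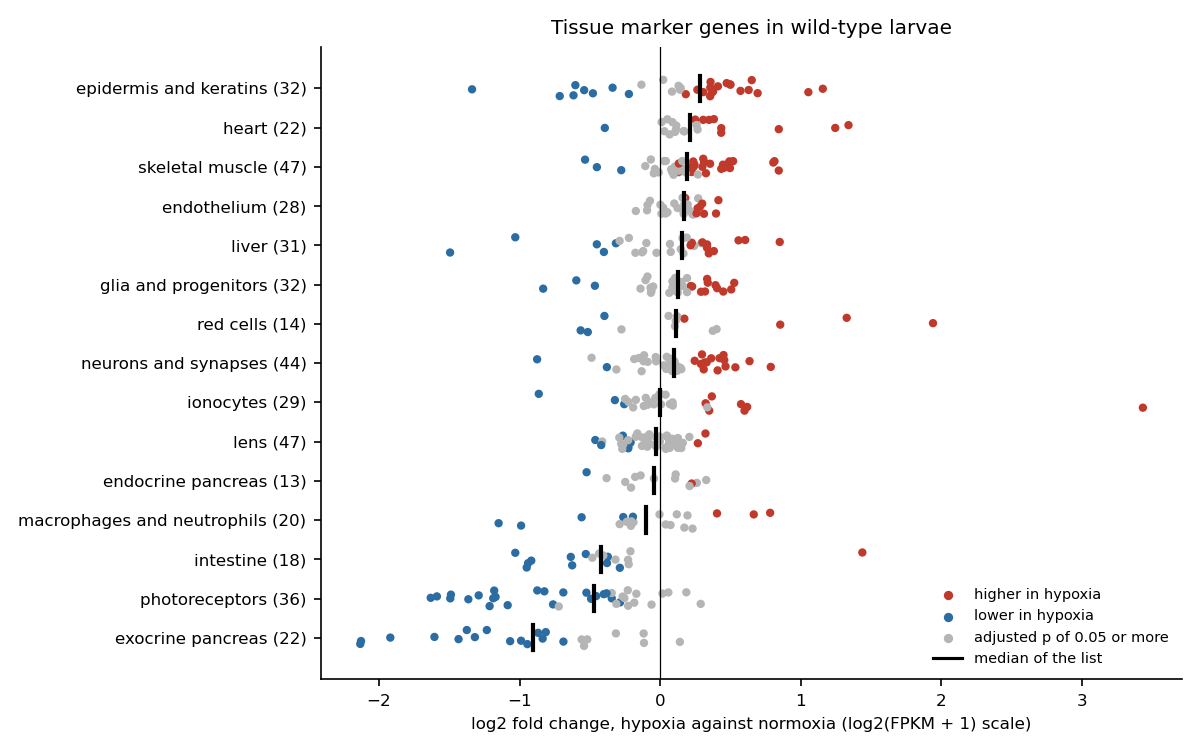
Log2 fold change of each tested tissue marker in wild-type hypoxia against normoxia (log2(FPKM + 1) scale), 1 dot per gene, red or blue where it passed the test higher or lower and grey where it did not, with a black bar at the list's median. Exocrine pancreas (-0.91), photoreceptors (-0.47) and intestine (-0.42) lie lowest, and epidermis (0.29) and heart (0.21) highest.

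Transcription factors, by the family column of the deposited table and looked at after the list results, rose in 324 of 1733 cases (18.7%, beside 16.8% of all genes) and fell in 124 (7.16%, beside 19.2%), with a median of 0.06. Homeobox genes gave 51 rises and 5 falls of 229. Of 8 RFX genes 7 rose, led by rfx4 (0.78 ± 0.11), rfx7a (0.51 ± 0.06) and rfx3 (0.47 ± 0.09). Of 10 E2F family genes 7 fell and none rose. In the bZIP family 24 of 62 rose and 4 fell, and the liver factor gene creb3l3b rose from 1.55 ± 0.0994 to 6.02 ± 0.997 FPKM (1.46 ± 0.12) while creb3l3a fell from 4.24 ± 0.251 to 1.95 ± 0.0401 FPKM (-0.83 ± 0.07).

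The table held 2511 pairs of tested genes named alike but for a final a or b, the usual mark of duplicate genes in zebrafish, though not every such pair is a true duplicate. Both members passed the test in 418 pairs. Of those, 196 pairs rose together, 142 fell together and 80 went opposite ways. In 988 pairs only 1 member passed. Besides creb3l3, the widest oppositions were in the transcobalamin genes tcnba (-1.03 ± 0.11) and tcnbb (1.56 ± 0.10), in mid1ip1a (0.88 ± 0.09) and mid1ip1b (-1.15 ± 0.08), and in the chromatin genes ing5a (0.64 ± 0.13) and ing5b (-1.19 ± 0.11).

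The hypoxia libraries varied more among themselves than the normoxia libraries. Among genes with a mean of at least 100 reads, the median coefficient of variation was 8.28% in wild-type hypoxia, 6.11% in wild-type normoxia, 6.90% in knockout hypoxia and 5.67% in knockout normoxia. A coefficient above 30% was found for 174 genes in wild-type hypoxia and for 30 in wild-type normoxia. Of the genes averaging 10 FPKM or more in wild-type hypoxia, the 10 most variable named ones included the globins hbbe1.2, at 479, 324 and 100.2 FPKM in hypoxia after 179.7, 175 and 208 FPKM in normoxia, and hbae1.2, at 48.8, 27.8 and 12.4 FPKM after 20.2, 25.8 and 23.2 FPKM. Replicate 1 was above and replicate 3 below every normoxia library for both, and neither gene passed the test (0.42 ± 0.44 and 0.16 ± 0.34). Without replicate 3 both passed, at 1.07 (adjusted p = 0.00951) for hbbe1.2 and 0.66 (adjusted p = 0.038) for hbae1.2.

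The short transcripts rps29, at 1044, 711 and 409.6 FPKM, rpl38, at 193, 116 and 76.9 FPKM, and ndufb1, at 213, 135 and 86.05 FPKM in hypoxia, had the same order of libraries. These 3 genes did not pass the test, and all passed when replicate 1 was left out, at -0.81, -0.92 and -0.93. All of them passed with voom as well, and rpl38 and ndufb1 also with TPM scaling and quantile normalization. For ndufb1 the filter at 5 FPKM and array weights also gave a call. In srpk2 (33.9, 66.4 and 24.2 FPKM), col9a1b (23.8, 46.01 and 18.6 FPKM), scg5 (5.501, 18.5 and 9.58 FPKM) and a 5.8S ribosomal RNA row (5.77, 25.99 and 10.5 FPKM) replicate 2 was instead the highest. The test was passed by srpk2 and col9a1b without replicate 3 and by scg5 without replicate 1 or with voom, and the ribosomal RNA row passed it with all 3 (1.63 ± 0.36). The digestive gene prss59.1 was also among the 10. By contrast, egln3 had a coefficient of variation of 3.66% in the same libraries.

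Gene length moved with these differences, though not evenly over all lengths. Among genes averaging 10 FPKM or more in wild-type hypoxia, replicate 3 minus replicate 1 had a median log2 difference of -0.14 for 915 genes of 500 to 1200 bases and of -0.02 for 942 genes of 4000 to 8000 bases. The response itself had medians of -0.12 and 0.09 in the same length classes. In the class of 500 to 1200 bases 333 genes were lower and 160 higher, and in the longer class 132 were lower and 356 higher. Knockout larvae gave medians of 0.05 and 0.03. The 159 genes under 500 bases had a median response of 0.064 in wild type, with 29 higher and 39 lower. Their median for replicate 3 minus replicate 1 was -0.095. For genes of 8000 bases or more the median was 0.076 in wild type and -0.135 in the knockout. Proteasome genes had a median length of 1557 bases and cytochrome c oxidase genes of 711.5 bases, against 2281.5 bases over all genes tested. Demethylase genes had a median of 5756 bases and collagen genes of 5948.5 bases. The part of length in the changes and the interactions of these lists was not tested.

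**Figure D5:**
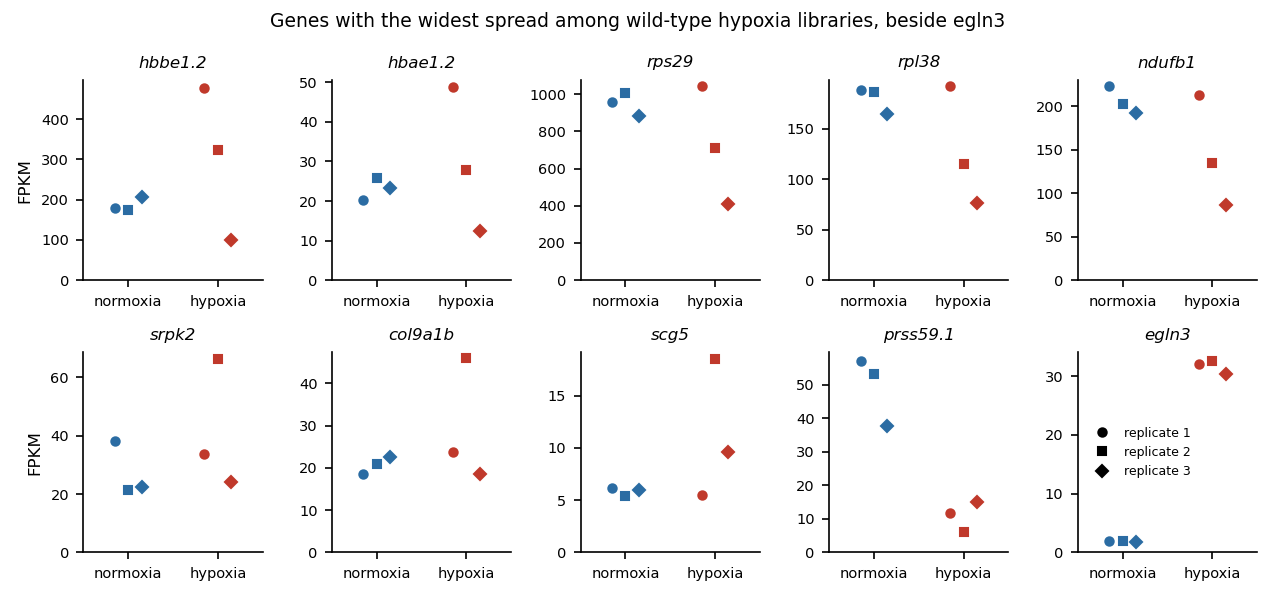
FPKM (linear axes from 0) of the 9 most variable named genes averaging 10 FPKM or more in wild-type hypoxia, ribosomal RNA left out. The gene egln3 is shown for comparison. Values are from 3 normoxia (blue) and 3 hypoxia (red) libraries, with 1 symbol per replicate. The globins hbbe1.2 and hbae1.2 and the short transcripts rps29, rpl38 and ndufb1 share an order of hypoxia libraries, while egln3 holds together at 32.05, 32.5 and 30.3 FPKM.

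The same exposure in gcn2 knockout larvae gave a test of which wild-type changes differed between genotypes. The interaction, the knockout's log2 fold change minus that of wild type, passed for 1986 of 21480 genes (9.25%), 1019 positive (4.74%) and 967 negative (4.50%). With TPM scaling, which moved the median interaction of all genes from 0.03 to -0.07, the split was 429 positive and 1720 negative. With quantile normalization it was 658 and 1066. The count was also sensitive to single libraries. It was 480 without wild-type normoxia replicate 1, 655 without normoxia replicate 3, 997 without wild-type hypoxia replicate 2, 1040, 1085 and 557 without knockout normoxia replicate 1, 2 and 3, and 611 and 1242 without knockout hypoxia replicate 1 and 2.

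No egln gene passed the interaction. It was 0.23 ± 0.09 for egln3 (adjusted p = 0.128), -0.14 ± 0.12 for egln2 and -0.05 ± 0.12 for hif1an (adjusted p = 0.832). For hif1al the rise was larger in the knockout, with an interaction of 0.63 ± 0.09 (adjusted p = 0.00665). The wild-type fall of gck (-2.95 ± 0.12) exceeded that in the knockout (-1.35 ± 0.12), with an interaction of 1.600 ± 0.17 (adjusted p = 8.98e-04, and 0.0507 with voom on recovered reads). Mean gck levels in normoxia were 8.22 FPKM in wild type and 1.96 FPKM in the knockout. In hypoxia they were 0.189 and 0.159 FPKM. On the log2(FPKM + 1) scale the lower normoxia level limits how far gck can fall in the knockout. In the knockout 21.8% of all genes tested passed higher and 22.2% lower. Of 26 cytochrome c oxidase genes, 9 fell in wild type and 1 in the knockout, and 5 and 12 rose. None had a negative interaction and 11 had a positive one, beside 4.74% of all genes. That count was 5 with TPM scaling, 4 with quantile normalization and between 3 and 17 with 1 library left out, lowest with wild-type normoxia replicate 1 and highest with wild-type hypoxia replicate 1 omitted.

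In the demethylase list 11 of 31 genes had a negative interaction, that is a lower response in the knockout, and in the collagen list 14 of 36. The share of all genes was 4.50%. No member of either list had a positive interaction. With 1 library left out the counts ran from 1 to 12 and from 8 to 16, and with TPM scaling they were 13 and 22. Proteasome genes fell in both genotypes, 41 and 37 of 45, beside 19.2% and 22.2% of all genes. Positive interactions numbered 9, beside 4.74% of all genes, or 3 with TPM scaling and between 1 and 19 with 1 library left out. Of 53 DNA replication genes 2 had a negative interaction, beside 4.50% of all genes, and none a positive one. No mitosis gene passed.

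Among genes past the wild-type test, the smallest adjusted p values of the interaction belonged to pmaip1, which was 2.93, 2.22 and 2.68 FPKM in wild-type normoxia and 3.797, 3.42 and 4.2999 FPKM in wild-type hypoxia, against 4.57, 3.39 and 4.01 FPKM and 51.8, 47.2 and 35.04 FPKM in the knockout (interaction 2.76 ± 0.19, adjusted p = 8.63e-05). The chaperone gene hsp90aa1.2 fell in wild type (-0.82 ± 0.06) and stood at 0.14 ± 0.06 in the knockout. The pentose phosphate gene pgd went from 40.2 ± 2.75 to 25.6 ± 1.59 FPKM in wild type (-0.63 ± 0.08) and rose in the knockout (0.39 ± 0.08). The purine gene gart fell slightly in wild type (-0.23 ± 0.06, a call lost without normoxia replicate 3) and further in the knockout (-1.11 ± 0.06). A cardiac actin gene, ACTC1 in the table, rose in wild type (0.94 ± 0.06) and stood at 0.17 ± 0.06 in the knockout. The rises of hmox1a (0.47 ± 0.08), styxl2 (0.87 ± 0.07), wipi2 (0.44 ± 0.05) and the amino acid transporter slc7a6 (0.23 ± 0.05) were larger in the knockout, at 1.73 ± 0.08, 1.74 ± 0.07, 1.06 ± 0.05 and 0.85 ± 0.05.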

How the data were processed

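Whole zebrafish larvae were profiled by poly(A) RNA-seq. The authors deposited FPKM per gene in 1 table, per the file headers. Per the submitters' processing notes, reads passed through fastp, HISAT2 2.2.1 and featureCounts 2.0.6 on GRCz11. The library kit named in the labels' protocols does not mark strand, so overlapping and antisense genes cannot be told apart, and reads of near-identical copies may have been split. FPKM times gene length was divided by a unit fitted for each library. The quotients fell within 0.05 of a whole number for 100% of nonzero values, which gave reads per library. The FPKM scaling is not given in the sources used here, but the median ratio factor of the FPKM was 1.007 in each of the 12 libraries. The library total implied by FPKM was 1.0135 to 1.0381 times the recovered reads in wild-type normoxia. In wild-type hypoxia it was 0.9496 to 0.9974 times the recovered reads.

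Zebrafish symbols were taken from the gene descriptions where the table gave human ones. Genes with at least 1 FPKM in at least 3 of 12 libraries were tested on log2(FPKM + 1) with limma 3.58.1 (R 4.3.3, trend, 4 group means). The interaction was the knockout's response minus that of wild type. Calls were checked on simulated data with the same spread setting for every gene and group. The check does not cover the wider spread among the wild-type hypoxia libraries. No count model was used, and a voom fit on the recovered reads was an alternative. Summaries used Python 3.11.15, pandas 2.3.3, numpy 2.4.6 and matplotlib 3.10.9. The p-values measure the spread between the deposited libraries.

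The members and the 55 gene lists were chosen with earlier results of these data known. Named genes were 70 anchors, up to 2 per list, 10 rises and 10 falls outside the lists, the 10 smallest interaction p values and the 10 most variable genes. A gene of the arrest and cell death list was taken out of it and is not reported here. Further list members were named for their role after values were seen. Replicate numbers were not taken as pairs. The interaction of 16 named genes and 4 lists was recomputed under the alternatives by a choice made after seeing the data. The gene names come from the table and RefSeq GRCz12tu, and no sequence was used here.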

Additional observations from a re-analysis of the deposited data

Results flagged for a closer look

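The response to hypoxia differed between wild-type and gcn2 knockout larvae for 1986 genes by limma's interaction term with Benjamini-Hochberg adjustment over 21480 genes, and the named genes among them are given here by the knockout's log2 fold change minus that of wild type. Named genes that rose in wild type and had a positive difference were pmaip1 (2.76), tat (1.57), pdk2b (1.304), hmox1a (1.25), styxl2 (0.86), pdk2a (0.85), igfbp6b (0.79), fbp1b (0.70), eif4ebp3 (0.70), igfbp1b (0.64), slc7a6 (0.63), hif1al (0.63), wipi2 (0.63), abcg1 (0.62), hsd20b2 (0.62), ndrg1b (0.62), mknk2b (0.60), insig1 (0.57), ponzr4 (0.56), ca5a (0.56), eif4ebp3l (0.54), cebpd (0.53), bnip3lb (0.52), pdk4 (0.51), mcl1b (0.50), map1lc3b (0.49), mcl1a (0.49), nfe2l2a (0.46), ccng2 (0.45), cited2 (0.43), irs2a (0.43), txnipa (0.40), cox4i2 (0.40), bsg (0.33), eef2k (0.32), rhbg (0.30) and ldha (0.24). Of those that rose in wild type and had a negative difference were hbae5 (-1.16), slc4a1a (-0.79), actc1 (-0.77), rfx3 (-0.75), tet3 (-0.65), scn1lab (-0.62), ero1a (-0.56), g6pc1a.1 (-0.53), hbbe2 (-0.35) and col16a1 (-0.35). Genes that fell in wild type and had a positive difference were gck (1.600), pgd (1.02), hsp90aa1.2 (0.97), plac8.1 (0.83), cad (0.81), tcnba (0.75), higd1a (0.75), cox7c (0.75), fabp2 (0.66), slc1a2a (0.60), agr2 (0.53), sdhc (0.49), hkdc1 (0.49), mid1ip1b (0.47), cahz (0.46), elocb (0.43), per2 (0.42), cox7b (0.39), psmd8 (0.39), cox7a2a (0.37), cox6b2 (0.35), acadm (0.34), sdhdb (0.33), idh3a (0.30), npm1a (0.28) and pdha1a (0.26). The named genes that fell in wild type and had a negative difference were gart (-0.89), apoba (-0.81) and srebf2 (-0.58). Other named genes that did not pass the wild-type test and had a positive difference were cygb1 (0.51). Further genes that did not pass the wild-type test and had a negative difference were col9a1b (-1.28) and kdm4b (-0.64). The count depended on single libraries and on scaling, as described beside the comparison, and the cause was not tested.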

How the results depend on the processing

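The wild-type count of 7723 genes stayed between 5875 and 8210 in 10 other settings and between 6331 and 7781 with 1 of the 12 libraries left out, and none of the 7723 changed sign in the settings that tested it. The gene sets differed, as the 5875 came from 11982 genes tested with the filter at 5 FPKM. Without the filter 7396 of 31402 passed. The 6 wild-type libraries alone gave 6630. In the main fit, an adjusted p under 0.01 gave 5073 genes. An adjusted p under 0.05 with an absolute log2 fold change of at least 1 gave 366. The interaction count of 1986 was 1230 without the filter, 3000 with voom on recovered reads and 480 to 2839 with 1 library left out, and the cause was not tested. With the replicate block, which fits the replicate number as a term, 7606 genes passed in wild type and 1979 in the interaction. Deviations from group means correlated between -0.09 and 0.12 for same-numbered libraries, so equal numbers were not taken to pair libraries. Under the block pfkfb2a lost its call (adjusted p = 0.0564), and rpl38 (0.0299), ndufb1 (0.0271) and cox4i1 (0.0222) gained one. Median ratio scaling of the deposited FPKM had a factor of 1.007 in each of the 12 libraries, with 7723 and 1987 genes past the tests.

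Of 289 named genes past the test, 282 passed in all 22 alternatives that tested them and none changed sign. Many of these genes were chosen for large changes among genes past the test. The count therefore does not measure how stable calls are in general. Median ratio scaling, 1 of the 22, had an equal factor in every library and could hardly differ from the main fit. The genes that lost the call somewhere were fkbp5, col16a1, socs1a, pax6b, pmaip1, gart and pfkfb2a. Genes that changed sign were all short of the test. With 1 library left out, the log2 fold change ran from -0.134 to 0.033 for hif1aa, from -0.008 to 0.038 for hif1ab, from -0.041 to 0.021 for p4ha1a, from -0.086 to 0.135 for ngb, from -0.107 to 0.059 for cygb2, from -0.053 to 0.199 for fosab, from -0.052 to 1.070 for hbbe1.2 and from -0.288 to 0.659 for hbae1.2. The interaction of hif1an ran from -0.140 to 0.043. TPM scaling gave -0.015 for hif1ab and -0.029 for p4ha1a, which stood at -0.002 with array weights and -0.000 with voom. The cause of these changes was not tested. With 3 libraries per group an exact permutation test of 1 gene cannot go below 0.10, and genes under the filter, epoa among them, had no test.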
